A study of Mus musculus with 6 samples.

Results

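Il4, Il5 and Il13, which encode the type 2 cytokines IL-4, IL-5 and IL-13, were followed together with Gata3, which encodes the transcription factor GATA3, in single T cells from mouse melanomas. The 4 genes were taken by name and not by a filter on their values, but earlier results of these data were known. They are 4 of the 14597 genes of the count table. All 4 were detected. Il4 was found in 445 of 12818 cells, Il5 in 116, Il13 in 195 and Gata3 in 2019.

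The cells were TCR-b+ T cells sorted from subcutaneous B16-F10 tumors, a melanoma line of the C57BL/6 mouse. All tumors grew in Foxp3-EGFP-DTR mice, in which the endogenous Foxp3 gene drives EGFP and a receptor for diphtheria toxin (DTx), and the toxin kills regulatory T (Treg) cells. The labels give PBS for 3 samples and DTx for 3. The count table names 6 libraries by the number 1 to 6 at the end of each barcode, and no label ties a number to a sample. Treatment could therefore not be assigned to any cell, and the treatments are not compared. Libraries are given by number, and are not replicates of a group. The toxin receptor is carried by every Foxp3-expressing cell of the mouse, not by those of the tumor alone.

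CD4+ T cells of the T helper 2 (Th2) type respond to helminths and allergens and secrete IL-4, IL-5 and IL-13. IL-4 drives IgE switching in B cells and further Th2 differentiation, IL-5 supports eosinophils, and IL-13 acts on epithelium and macrophages. The 3 cytokine genes lie in a cluster on mouse chromosome 11 that opens under the control of GATA3, the factor that defines the Th2 lineage, while STAT6 carries the signal from the IL-4 receptor. GATA3 is also used outside Th2 cells, in T cell development, in CD8+ T cells and in Treg cells. Eosinophils, basophils, mast cells and innate lymphoid cells express genes of the same program, so markers of these cells were read as well.

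In the GENCODE M21 annotation of build GRCm38, Il4 (ENSMUSG00000000869.12) lies at chr11:53602982-53618669 on the minus strand, Il13 (ENSMUSG00000020383.1) at chr11:53631324-53634702 on the minus strand and Il5 (ENSMUSG00000036117.2) at chr11:53720794-53725106 on the plus strand. Rad50, which encodes a DNA repair protein and holds the locus control region of the cytokine cluster, lies between Il13 and Il5 at chr11:53649519-53707319. Gata3 (ENSMUSG00000015619.10) lies on another chromosome, at chr2:9857078-9890034 on the minus strand.

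The 250 bases before the transcription start of each cytokine gene are shown, and were searched for motifs of GATA3 and of the activation factor NFAT. They are RefSeq promoters of build GRCm38.p6 and read 5′ to 3′ in the direction of the gene, with matches to a GATA motif in capitals. The regions are chr11:53618666-53618915 (minus strand) for Il4, chr11:53720544-53720793 (plus strand) for Il5 and chr11:53634703-53634952 (minus strand) for Il13. Of 2 windows listed for Il4, the one whose start lay 4 bases from the GENCODE start was taken.
Il4: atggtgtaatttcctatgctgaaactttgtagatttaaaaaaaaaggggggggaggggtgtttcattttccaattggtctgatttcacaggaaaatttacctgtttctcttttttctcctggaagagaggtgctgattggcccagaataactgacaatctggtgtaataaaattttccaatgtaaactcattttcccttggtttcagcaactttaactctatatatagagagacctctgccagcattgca
Il5: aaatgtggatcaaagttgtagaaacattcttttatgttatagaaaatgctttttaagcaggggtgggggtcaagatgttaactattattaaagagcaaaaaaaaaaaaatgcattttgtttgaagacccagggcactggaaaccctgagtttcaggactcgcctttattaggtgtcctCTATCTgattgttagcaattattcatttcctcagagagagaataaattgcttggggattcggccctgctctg
Il13: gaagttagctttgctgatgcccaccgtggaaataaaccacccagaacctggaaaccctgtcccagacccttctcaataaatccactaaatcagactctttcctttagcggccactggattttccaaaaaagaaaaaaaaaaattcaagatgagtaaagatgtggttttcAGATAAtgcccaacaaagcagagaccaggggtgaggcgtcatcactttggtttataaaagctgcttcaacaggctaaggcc
The GATA motif was searched on both strands in its forms AGATAA, with A at each end, then TGATAG, with T first and G last, and the mixed forms AGATAG and also TGATAA. It occurred in the Il5 window at position -72 from the start, on the other strand, and in the Il13 window at position -81. The Il4 window held no match, which says only that these letters were not in it. Among all 32851 promoter windows of the same length, 26.5% held a match. The letters GGAAAA, an NFAT core, were searched on both strands and occurred 4 times in the Il4 window, at positions -185, -161, -78 and -60. There was 1 such match in the Il13 window, at position -132, and none in the Il5 window, against 20.4% of all windows with at least 1. The matches describe the sequence and do not show binding. The locus control region in Rad50 lies outside these windows and was not searched.

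The 6 libraries held 1768 to 2640 cells each, with median depths of 610 to 2499.5 UMIs per cell and 1250.5 UMIs over the pool. A UMI is a molecular tag that counts 1 captured transcript, and since 5′ libraries capture each transcript once, levels of different genes were not scaled by length. Cells were gated by their own UMIs. CD4+ Tconv cells (1205) had Cd4 transcripts but lacked those of Foxp3, Cd8a and Cd8b1. CD8+ cells (4497) had transcripts of Cd8a, Cd8b1 or both but lacked Cd4 and Foxp3, and Foxp3+ cells (97) had Foxp3 but neither Cd8 transcript. The remaining gates were cells with Cd4 and Cd8 UMIs together (163), cells with Foxp3 and Cd8 UMIs (18), and ungated cells with none of the 4 transcripts (6838). Foxp3+ cells came from libraries 1, 2 and 3 (49, 30 and 17 cells) and library 6 (1 cell), with none in libraries 4 and 5. No doublet caller was run. The cells with both Cd4 and Cd8 UMIs had a median depth of 4223 UMIs and are kept apart. Of 12742 barcodes, 76 occurred in more than 1 library, and 0 of these carried a cytokine UMI in more than 1 of them. T cell markers were present in every library, at 45.2 to 50.5 summed UMIs per 10,000 for the 9 genes.

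Il4 was the most widely detected cytokine gene, and libraries 4, 5 and 6 held nearly all of its transcripts. Its UMIs numbered 11, 8, 20, 688, 302 and 313 in libraries 1 to 6. Scaled to 10,000 UMIs of the same library, the levels were 0.037, 0.025, 0.104, 1.34, 0.589 and 0.890. The level was highest in library 4, lower in library 6 and lower again in library 5. Their 95% counting intervals did not overlap (1.24 to 1.45, 0.794 to 0.994 and 0.525 to 0.659). Libraries 1, 2 and 3 were far below these, and the intervals of neighbours in that low range overlapped. A single ungated cell held 76 of the 313 Il4 UMIs of library 6. The order of libraries 5 and 6 without this cell was not tested. The share of cells with an Il4 UMI was 6.79% (5.73 to 7.99) in library 5. It was lower in library 6, at 5.76% (4.79 to 6.86), with overlapping intervals. At an equal depth of 1000 UMIs per cell, the expected shares were 3.72% in library 5 and 4.68% in library 6. Counting intervals (exact Poisson for UMIs, exact Clopper-Pearson for shares) cover counting error only. They do not hold the spread between animals, and UMIs of 1 cell are not independent.

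Il13 followed the same libraries with a steeper fall. Its UMIs numbered 4, 0, 8, 769, 291 and 114, and its levels were 0.014, 0, 0.042, 1.50, 0.568 and 0.324 per 10,000. Libraries 4, 5 and 6 stood in that order with intervals that did not overlap, and none of the 2640 cells of library 2 had an Il13 UMI, a count that allows a captured Il13 UMI in at most 0.114% of its cells.

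Il5 was the rarest of the 3 cytokine transcripts and the one that did not follow the others across libraries. Its UMIs numbered 2, 0, 44, 319, 45 and 97, and its levels were 0.007, 0, 0.230, 0.622, 0.088 and 0.276 per 10,000. Library 4 was again highest, but library 3 (0.167 to 0.308) overlapped library 6 (0.224 to 0.336) and lay above library 5 (0.064 to 0.117). For Il4 and Il13 library 3 was far below library 5. In library 3 Il5 was found in 29 cells, Il4 in 18 and Il13 in 4, whereas in library 5 the same genes were found in 14, 135 and 49 cells.

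Gata3 was present in all 6 libraries and varied less than the cytokine genes. Its levels were 0.834, 0.327, 1.59, 1.86, 1.70 and 1.92 UMIs per 10,000. Libraries 3 to 6 lay close together, with overlapping intervals between neighbours in their order, and library 2 was lowest (0.267 to 0.396). Thus library 3 held Gata3 at nearly the level of library 5 (1.41 to 1.77 against 1.59 to 1.81), with Il4 at 0.104 against 0.589.

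**Figure D1:**
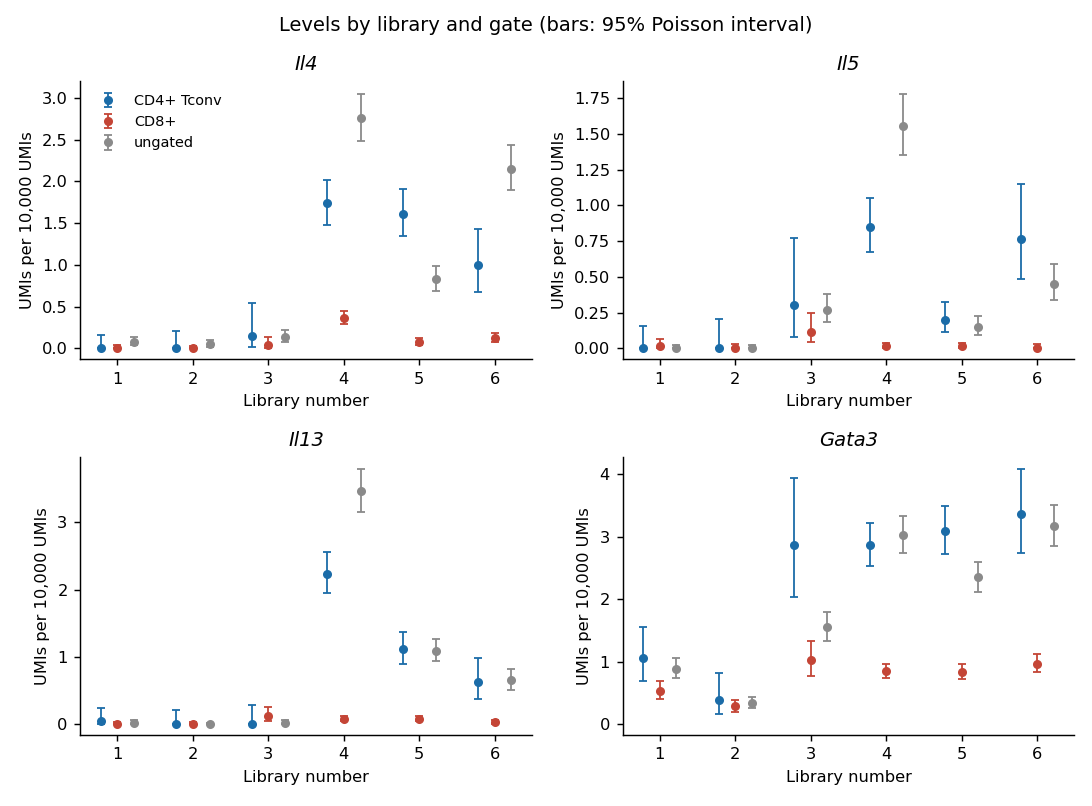
Level of each gene in UMIs per 10,000 UMIs (vertical axis, separate scale for each gene) by library number (horizontal axis) in CD4+ Tconv cells (blue), CD8+ cells (red) and ungated cells (grey), with exact Poisson 95% intervals. Il4 and Il13 are near 0 in libraries 1 to 3, Il5 is not in library 3, and Gata3 is above 0 in every library and higher in CD4+ Tconv than CD8+ cells in 6 of 6.

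The cytokine transcripts were found mainly in CD4+ Tconv cells and in ungated cells. In CD4+ Tconv cells the pooled level was 1.26 UMIs per 10,000 for Il4 (1.12 to 1.40), 0.475 for Il5 (0.395 to 0.566) and 1.24 for Il13 (1.11 to 1.38). Library 4 carried much of this. Without it the CD4+ Tconv levels were 0.979, 0.260 and 0.665, and the mean over cells, which gives each cell the same weight, was 0.880, 0.279 and 0.626. In CD8+ cells the levels were 0.141 (0.118 to 0.166), 0.017 (0.010 to 0.028) and 0.052 (0.038 to 0.068). CD8+ T cells are not a usual source of these cytokines, and their shares serve here as the background beside those of CD4+ Tconv cells. Il4 was found in 8.63% of CD4+ Tconv cells and in 45 of the 4497 CD8+ cells (0.731 to 1.34%), Il5 in 2.66% and 0.222%, and Il13 in 5.39% and 0.311%, at median depths of 1622 and 1708 UMIs. Without library 4 the CD4+ Tconv shares were 5.67%, 1.33% and 3.11%. With every cell thinned to 1000 UMIs, which left out 295 CD4+ Tconv and 762 CD8+ cells, the shares were 5.94% and 0.523% for Il4, 1.95% and 0.0969% for Il5, and 3.86% and 0.222% for Il13.

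Since libraries differed in both level and gate sizes, CD4+ Tconv cells were compared with CD8+ cells of the same library. Il4 had 328 UMIs in CD4+ Tconv cells against 45.1 expected from the CD8+ level, a ratio of 7.27 (6.51 to 8.10). For Il5, 124 UMIs were found against 4.87 expected, a ratio of 25.4 (21.2 to 30.3). For Il13, 324 were found against 16.2 expected, a ratio of 20.1 (17.9 to 22.4). All 3 cytokine genes thus lay past 2-fold, where 4.12% of the 10384 genes with at least 20 UMIs in both gates together were at least 2-fold higher and 3.53% at least 2-fold lower, with a median log2 ratio of 0.04 (0.5 UMIs added). Il5 reached the 20 UMIs only through the CD4+ Tconv cells, since the CD8+ cells held 17. These ratios rested on libraries 4, 5 and 6. Within them Il4 was 4.77, 21.1 and 8.16 times higher in CD4+ Tconv cells, and Il13 was 27.8, 14.6 and 23.8 times higher. Il5 had only 4, 4 and 1 UMIs in the CD8+ cells of these libraries against 81, 16 and 23 in CD4+ Tconv cells. In library 3 the CD8+ cells held 6 Il13 UMIs and the CD4+ Tconv cells none, so that the direction there was the opposite. Libraries 1 and 2 together held 3 cytokine UMIs in both gates. Leaving out library 4 gave ratios of 15.7 for Il4, 12.6 for Il5 and 13.0 for Il13.

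The CD8+ cells with cytokine UMIs were few and differed from the other CD8+ cells in their levels of Cd40lg and Ccl5. There were 54 of them, and 14 (25.9%, 15.0 to 39.7) had a single Cd8 UMI. This interval held the 30.8% of the CD8+ cells without a cytokine UMI. Their level of Cd40lg, the helper T cell ligand of CD40, was 4.55 UMIs per 10,000 against 0.451 in other CD8+ cells and 4.27 in CD4+ Tconv cells with a cytokine UMI. Their level of Ccl5, a chemokine of cytotoxic T cells, was 37.0 against 97.5 in other CD8+ cells and 2.06 in CD4+ Tconv cells with a cytokine UMI. Their median depth was 3933.5 UMIs against 1698. The levels of Cd40lg and Ccl5 were matched neither by library nor by depth. The part of droplets that held a pair of cells was not tested. With at least 2 Cd8 UMIs required of CD8+ cells, a gate chosen after the data were seen, the ratio of Il4 rose to 13.5 (12.1 to 15.1), that of Il5 was 28.2 and that of Il13 was 26.0.

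Gata3 was also higher in CD4+ Tconv cells, by less than the cytokine genes. Its levels in libraries 1 to 6 were 1.06, 0.393, 2.87, 2.86, 3.09 and 3.36 UMIs per 10,000 in CD4+ Tconv cells. In CD8+ cells they were 0.529, 0.282, 1.02, 0.846, 0.833 and 0.963. The CD4+ Tconv level was the higher in 6 of 6 libraries, although the intervals overlapped in library 1 (0.684 to 1.56 against 0.399 to 0.687) and library 2 (0.158 to 0.810 against 0.199 to 0.389). Within libraries the ratio was 3.34 (3.09 to 3.59), and it ran from 3.16 to 3.42 when 1 library was left out. Gata3 was found in 30.6% of CD4+ Tconv and 12.8% of CD8+ cells, and in 19.6% and 6.35% at 1000 UMIs per cell.

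**Figure D2:**
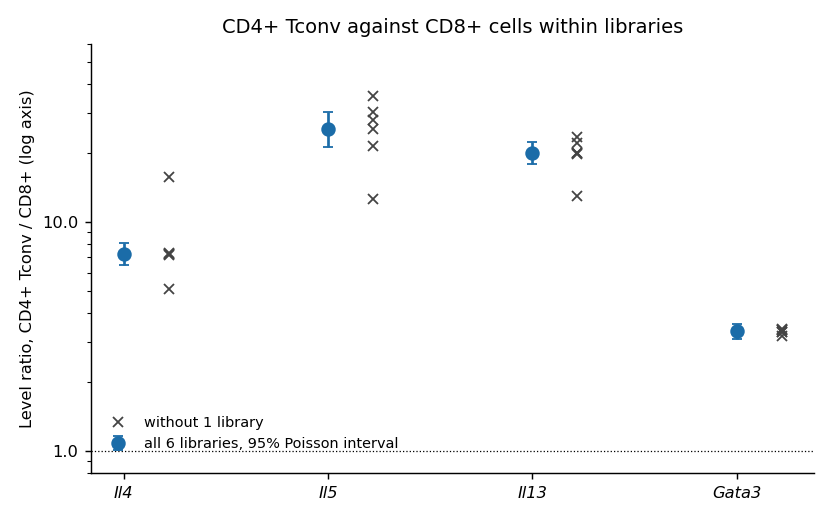
Ratio of the level in CD4+ Tconv cells to that expected from CD8+ cells of the same library for each gene (log axis). Blue points use all 6 libraries, with 95% Poisson intervals of the UMIs found, and crosses leave out 1 library each. The ratios are 7.27 for Il4, 25.4 for Il5, 20.1 for Il13 and 3.34 for Gata3, and the crosses spread far more for the cytokine genes than for Gata3.

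Foxp3+ cells carried Gata3 and no cytokine transcript. In these 97 cells Gata3 had 54 UMIs in 30 cells, a level of 2.76 per 10,000 (2.07 to 3.60). Against the CD4+ Tconv cells of the same libraries, 23.7 UMIs were expected, a ratio of 2.28 (1.71 to 2.98), where 5.14% of the 5196 genes with at least 20 UMIs were at least 2-fold higher. By library the Foxp3+ levels were 2.34, 0.942 and 7.13 in libraries 1, 2 and 3, against 1.06, 0.393 and 2.87 in CD4+ Tconv cells, and the ratio ran from 2.14 to 2.35 with 1 library left out. The single Foxp3+ cell of library 6 had no Gata3 UMI. Il4, Il5 and Il13 had 0 UMIs in Foxp3+ cells, a count that allows a captured UMI of each in at most 3.09% of them. Only 0.692, 1.16 and 0.569 UMIs were expected, so a difference was not detectable at this depth.

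Ungated cells held most of the cytokine transcripts, at 59.1% of all Il4 UMIs, 63.5% of Il5 and 61.5% of Il13, and 48.2% of those of Gata3. They were also the largest gate, with 53.3% of all cells and 8347384 of the 21816565 UMIs of all genes. Cd4 mRNA is sparse in droplet data, so a cell without a Cd4 UMI may still be a CD4+ T cell. Pooled, the ungated level of Il4 was 0.950 UMIs per 10,000, below the 1.26 of CD4+ Tconv cells. Libraries differ in their share of ungated cells, and the order of these levels turned when cells were compared within libraries. There, Il4 was 1.26 times the CD4+ Tconv level in ungated cells (1.18 to 1.36), Il5 1.18 times (1.06 to 1.32), Il13 1.29 times (1.20 to 1.39) and Gata3 0.832 times (0.791 to 0.875). For the cytokine genes this order rested on single libraries. Without library 4 the ratio of Il5 was 0.695 (0.570 to 0.839) and that of Il13 0.989 (0.871 to 1.12). For Il4 it was 1.07 (0.965 to 1.17) without library 4, 1.06 (0.977 to 1.16) without library 6 and 1.78 (1.65 to 1.92) without library 5. Il4 was 1.59 and 2.15 times higher in ungated than CD4+ Tconv cells of libraries 4 and 6, and 0.513 times as high in library 5. For Gata3 the ratio ran from 0.770 to 0.898 with 1 library left out. The ungated cells with a cytokine UMI had Cd40lg at 5.27 UMIs per 10,000 and Ccl5 at 3.67, against 3.38 and 30.5 in other ungated cells. Cells with both Cd4 and Cd8 UMIs also held the cytokines, with Il4 in 12.3% of them before and 4.74% after thinning to 1000 UMIs.

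Cytokine transcripts were concentrated in few cells, unlike those of Gata3. The 10 cells with the most UMIs of a gene held 26.3% of all Il4 UMIs, 45.6% of Il5 and 34.9% of Il13, but 2.63% of Gata3. The most UMIs in a cell were 76 for Il4, 60 for Il5, 70 for Il13 and 12 for Gata3. At the same time 53.5% of Il4-positive, 44.0% of Il5-positive, 42.1% of Il13-positive and 68.7% of Gata3-positive cells had a single UMI. Library 4 supplied 8, 7, 7 and 9 of the 10 leading cells. A level of a cytokine gene in a gate or library therefore reflects both how many cells carried it and a small number of cells with many copies.

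The genes were then read cell by cell. For each pair, the cells with a UMI of both were counted against the number expected if the genes fell independently among cells of the same library and the same depth group (5 groups of equal size per library). The cytokine genes were found together far more often than expected. Il5 and Il13 shared 65 cells against 6.63 expected, a ratio of 9.80 (7.56 to 12.5). Il4 and Il13 shared 106 against 20.6, a ratio of 5.16 (4.22 to 6.24), and Il4 and Il5 shared 43 against 10.4, a ratio of 4.13 (2.99 to 5.56). As shares of each gene's cells, Il13 was found in 56.0% of Il5 cells and 23.8% of Il4 cells, while Il4 was found in 54.4% of Il13 cells and 37.1% of Il5 cells.

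Gata3 was also found with each cytokine gene more often than expected. It was detected in 64.7% of Il4 cells, 75.0% of Il5 cells and 72.3% of Il13 cells, against 15.8% of all cells. The cells with both numbered 288 against 132 expected for Il4, a ratio of 2.18 (1.94 to 2.45), 87 against 37.1 for Il5, a ratio of 2.34 (1.88 to 2.89), and 141 against 68.4 for Il13, a ratio of 2.06 (1.74 to 2.43). Conversely, 372 of the 2019 Gata3 cells (18.4%) carried a cytokine UMI.

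The excess was smaller among CD4+ Tconv cells, where all the genes are more common. Il5 and Il13 shared 24 of these cells against 6.22 expected (3.86, 2.47 to 5.74), and Il4 and Il13 shared 34 against 16.3 (2.09, 1.45 to 2.92). Gata3 with Il4 had a ratio of 1.47 (1.16 to 1.83). For Il4 with Il5 (1.59, 0.821 to 2.78), Gata3 with Il5 (1.24, 0.785 to 1.86) and Gata3 with Il13 (1.20, 0.878 to 1.61) the interval held 1. Leaving out 1 library at a time kept all 6 ratios over the whole pool above 2, from 2.03 to 14.0.

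**Figure D3:**
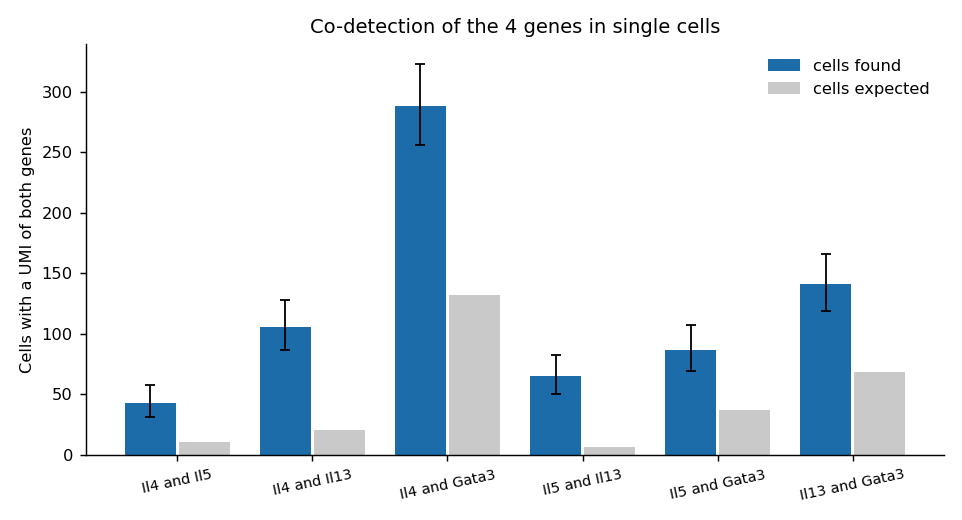
Number of cells with a UMI of both genes of each pair (blue, with 95% Poisson intervals) beside the number expected within library and depth group (grey). Found exceeds expected in all 6 pairs, from 65 against 6.63 for Il5 and Il13 to 141 against 68.4 for Il13 and Gata3.

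Most cytokine-positive cells nevertheless showed 1 cytokine gene. Of the 575 cells with a UMI of Il4, Il5 or Il13, 329 had Il4 alone of the 3, 57 Il13 alone and 41 Il5 alone. Il4 and Il13 without Il5 were found in 73 cells, Il5 and Il13 without Il4 in 32, and Il4 and Il5 without Il13 in 10. All 3 were found in 33 cells, 27 of them with Gata3, and all 33 came from libraries 4, 5 and 6. At a median depth of 2488 UMIs in cytokine cells, a second transcript could be missed, so these are not counts of cells that make only 1 cytokine.

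Library 3 differed in its Il5 cells. Of its 29 Il5 cells, 27 (93.1%, 77.2 to 99.2) had no Il13 UMI, against 29.1% (17.6 to 42.9) in library 4, 14.3% (1.78 to 42.8) in library 5 and 29.4% (10.3 to 56.0) in library 6. Il5 made up 84.6% (71.9 to 93.1) of the Il5 and Il13 UMIs of library 3, and 29.3%, 13.4% and 46.0% of those of libraries 4, 5 and 6. The depth of these cells was lower in library 3, at a median of 1198 UMIs against 3045 to 4400.5. Gata3 was found in 17 of the 29 cells against 4.89 expected, and a T cell marker in 26 of 29.

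The Il5 cells of library 3 also carried other transcripts in different amounts. Areg, which encodes the growth factor amphiregulin, had 1.53 UMIs per 10,000 in them (0.660 to 3.01), against 22.4, 5.55 and 10.4 in the Il5 cells of libraries 4, 5 and 6. Ccl5 had 53.5 (47.4 to 60.1), on 280 UMIs in 9 of the 29 cells, against 62.3 in the library's cells without cytokine UMIs. In the Il5 cells of libraries 4, 5 and 6, Ccl5 had 2.32, 4.12 and 31.0 against 76.4, 66.1 and 81.2 in the cells without. Gata3 had 4.20, 5.50, 3.27 and 5.11 UMIs per 10,000 in the Il5 cells of libraries 3 to 6, with overlapping intervals. Whether the Il5 cells of library 3 are a separate population was not tested.

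Cells with a UMI of Il4, Il5 or Il13, called cytokine cells here, made up 4.49% of all cells (575). By library they numbered 9, 3, 47, 221, 157 and 138, or 0.424%, 0.114%, 2.07%, 12.5%, 7.90% and 6.79%. Of the 575, 142 were CD4+ Tconv cells, 54 CD8+ cells, 30 had Cd4 and Cd8 UMIs and 349 were ungated. They were deeper than other cells (median 2488 against 1218 UMIs), so each was compared with cells without a cytokine UMI of the same library and depth group.

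Gata3 was higher in cytokine cells. It had 865 UMIs in them against 227.6 expected, a ratio of 3.80 (3.55 to 4.06). Among the 11151 genes with at least 20 UMIs, 5.19% were at least 2-fold higher and 6.74% at least 2-fold lower, with a median log2 ratio of -0.02. Within CD4+ Tconv cells alone the log2 ratio of Gata3 was 1.18, against 1.92 in all cells. The level did not climb steadily with the number of cytokine UMIs. It was 1.14 UMIs per 10,000 in cells with none, 5.01 (4.44 to 5.63) in cells with 1, 4.88 (4.30 to 5.52) with 2 to 3, 3.95 (3.37 to 4.60) with 4 to 9 and 5.43 (4.61 to 6.35) with 10 or more. Against matched cells the ratios were 3.68, 3.88, 3.27 and 4.72.

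**Figure D4:**
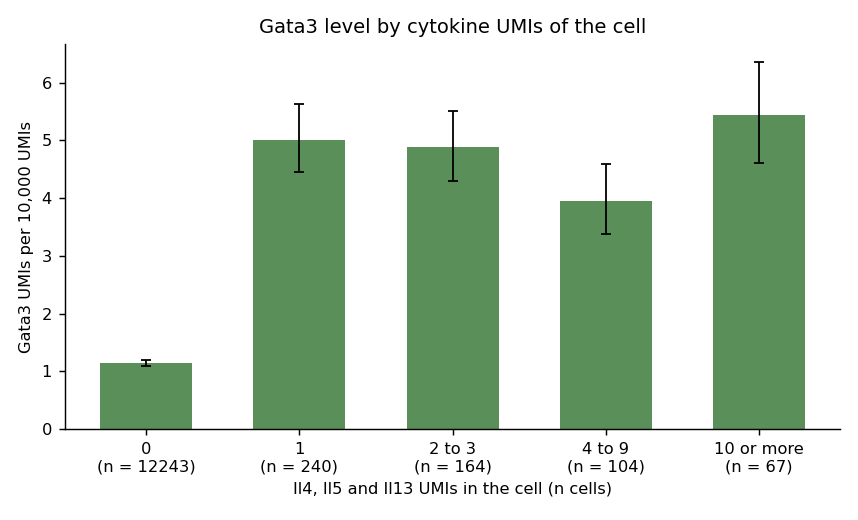
Gata3 level in UMIs per 10,000 UMIs (bars, from 0, with 95% Poisson intervals) by the number of Il4, Il5 and Il13 UMIs in the cell, with the number of cells under each bar. The level is 1.14 in cells with none and between 3.95 and 5.43 in the 4 classes of cytokine cells.

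Most other cytokine genes of Th2 cells were higher in cytokine cells. This list and those below were chosen with earlier results of these data known. Of 8 list genes with enough UMIs, 7 were at least 2-fold higher and none lower, but Il3 and Il31 had enough only through the cytokine cells themselves and could be called in no other way. Of the 6 genes with 20 UMIs in the comparison cells alone, 5 were higher, with a median log2 ratio of 2.61, where 4.61% of all genes so filtered were higher and 6.82% lower. Il3, which supports basophils and mast cells, had 54 of its 56 UMIs in cytokine cells, and Il31, the itch cytokine, had 40 UMIs in 5 cells, all of which carried Il4. Il10, an inhibitory cytokine, was 14.5 times higher (11.8 to 17.7) and Areg 11.3 times (10.7 to 11.9). Csf2, which encodes GM-CSF, was 4.30 times higher (3.96 to 4.67). Tnfsf14, a TNF family ligand, was at 0.957 times the expected level. In CD4+ Tconv against CD8+ cells, 5 of 6 genes of the same list were at least 2-fold higher, against 4.12% of all tested genes. Areg led at 9.13 times. Without Il3, which had enough UMIs only through the CD4+ Tconv cells, it was 4 of 5.

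The transcription factors beside Gata3 moved less. Of 19 tested, 3 were at least 2-fold higher and none lower in cytokine cells, with a median log2 ratio of 0.16. Among all tested genes 5.19% were higher and 6.74% lower. Pparg, a nuclear receptor of tissue Th2 cells, had 50 UMIs against 2.98 expected, a ratio of 16.8 (12.5 to 22.2). Rbpj, the nuclear partner of Notch, was 2.88 times higher (2.55 to 3.23) and Maf, an activator of Il4, 2.43 times (2.18 to 2.70). Stat6, singled out after its value was seen for its place under the IL-4 receptor, was at 1.11 times the expected level (0.841 to 1.43). The lowest ratio was that of Stat5a, at 0.784 (0.525 to 1.13). In CD4+ Tconv against CD8+ cells, 3 of 19 factors were at least 2-fold higher, against 4.12% of all tested genes. These were Maf at 5.74 times, Pparg at 4.11 times and Rbpj at 2.39 times. Pparg had enough UMIs only through the CD4+ Tconv cells.

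Receptors were at least 2-fold higher in 8 of 16 cases and lower in none, against 5.19% and 6.74% of all tested genes. Their median log2 ratio was 0.91. Il1rl1, which encodes the IL-33 receptor ST2, was 7.22 times higher (6.45 to 8.06), Ccr4 5.67 times, Ccr8 4.99 times and Tnfrsf4, which encodes OX40, 3.89 times. The first 3 of these are receptors of Th2 and Treg cells. Another of the 8, Il17rb, had only 3 UMIs against 1.15 expected (2.61, 0.538 to 7.62). Il18r1, part of the IL-18 receptor of Th1 cells, had the lowest ratio, at 0.507 (0.423 to 0.603). In CD4+ Tconv against CD8+ cells, 5 of 14 were at least 2-fold higher, against 4.12% of all tested genes. They ran from Ptger2, a prostaglandin E2 receptor, at 2.08 times to Tnfrsf4 at 8.03 times.

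Enzymes and peptides linked to tissue Th2 cells were at least 2-fold higher in 6 of 8 cases, against 5.19% of all tested genes. Cyp11a1 and Alox5ap had enough UMIs only through the cytokine cells, and 4 of the other 6 were higher. Hdc, which makes histamine, had 252 UMIs against 7.95 expected, a ratio of 31.7 (27.9 to 35.9). Cyp11a1, which starts steroid synthesis, had a ratio of 30.0 (23.8 to 37.4), Calca, the gene of the neuropeptide CGRP, 13.4 (11.2 to 15.9) and Penk, which encodes proenkephalin, 8.42 (7.58 to 9.34). Plac8 was at 0.899 times the expected level. In CD4+ Tconv against CD8+ cells, 5 of 6 were at least 2-fold higher, against 4.12% of all tested genes. Hdc was at 39.4 times and Penk at 36.0 times. Hdc and Cyp11a1 had enough UMIs only through the CD4+ Tconv cells.

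Th1 and CD8+ effector genes were lower or did not pass 2-fold, and Treg genes went both ways. Of 12 Th1 genes, 6 were at least 2-fold lower and none higher, against 6.74% and 5.19% of all tested genes. Ifng, the gene of interferon gamma, was at 0.404 times the expected level (0.367 to 0.443). Eomes, a factor of cytotoxic T cells, was at 0.0943 times. Each of 11 genes of CD8+ effector cells was at least 2-fold lower, with Gzmb, which encodes granzyme B, at 0.468 times and Gzma, which encodes granzyme A, at 0.180 times. Cd8a and Cd8b1 are among these 11 genes and also define the CD8+ gate. Cells were matched by library and depth but not by gate. CD8+ cells were 54 of the 575 cytokine cells and 4443 of the 12243 other cells. In CD4+ Tconv against CD8+ cells, 11 of 11 effector genes and 2 of 12 Th1 genes were at least 2-fold lower, against 3.53% of all tested genes. There the calls of Cd8a and Cd8b1 were fixed by the gates, since CD4+ Tconv cells lack both by definition. The part of the gates in the counts of cytokine cells was not tested. Of 10 genes of the Treg list, 4 were higher, namely Il10, Il2ra, Ikzf4 and Tnfrsf18, against 5.19% of all tested genes, and 1 was lower. That gene was Foxp3, with 0 UMIs in cytokine cells against 1.97 expected, too few for a difference to be detectable.

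The neighbours of the cytokine genes on chromosome 11 did not move alike. Of 8 with enough UMIs, 5 were at least 2-fold higher in cytokine cells and none lower, or 4 of 7 without Il3. Among all tested genes 5.19% were higher and 6.74% lower. Rad50, within the cluster, was 1.70 times higher (1.40 to 2.04) and Irf1, an interferon response factor beyond Il5, 1.31 times (1.19 to 1.44). Kif3a and Sept8, on the other side of Il4, were 2.87 (1.53 to 4.91) and 2.28 (1.21 to 3.90) times higher, on 13 UMIs each. Pdlim4, with its start 450.3 kb from that of Il4, was 8.46 times higher (6.69 to 10.6), and Csf2 and Il3, at 631.0 and 648.6 kb, were given above. Slc22a5, a carnitine carrier between Irf1 and Pdlim4, had 5 UMIs against 7.45 expected. The stranding of the counts was not stated, so reads of genes that overlap on opposite strands cannot be told apart.

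**Figure D5:**
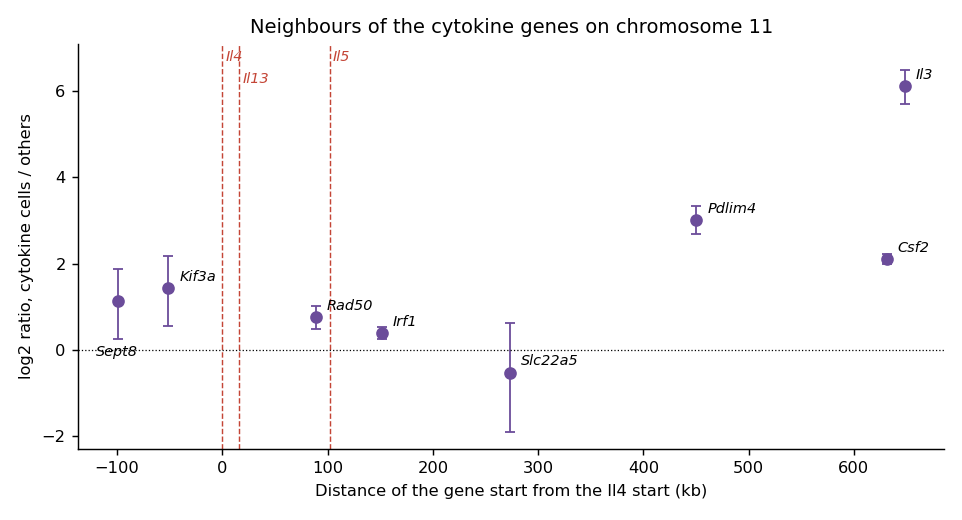
Log2 ratio of UMIs found in cytokine cells to those expected from matched cells (vertical axis, 0.5 added to both, 95% Poisson intervals of the UMIs found) against the distance of the gene start from the Il4 start in kb (horizontal axis). Dashed lines mark Il4, Il13 and Il5, which defined the cells. Rad50 and Irf1 are at 0.76 and 0.39, and Pdlim4, at 450.3 kb, is at 3.01.

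Lists of markers of other cells that express type 2 cytokines were not low as a whole, and hold genes that Th2 cells also express. The basophil and mast cell list summed to 1.41 UMIs per 10,000 in cytokine cells against 0.0600 in others, and the list for innate lymphoid and NKT cells to 13.1 against 5.91, with a UMI in 414 of the 575 cells. Of 13 genes of the basophil and mast cell list, 4 were rows of the table used here, and 252 of the 254 UMIs of the list in cytokine cells were of Hdc, a gene that the Th2 list also holds. Kit, the mast cell growth factor receptor, and Cpa3, a mast cell protease, had 0 UMIs in cytokine cells, and Cd200r3 had 2. Of the eosinophil list, Siglecf and Ccr3 had 1 UMI each. Of the 7 tested genes of the list for innate lymphoid and NKT cells, 3 were at least 2-fold higher and 1 lower. Among all tested genes 5.19% were higher and 6.74% lower. Areg, also on the Th2 list, supplied 1338 of its 2363 UMIs in cytokine cells. Id2 had 559 UMIs (0.777 times the expected level), Rora 356 (1.05 times), Klrg1 88 (1.23 times) and Il17rb 3. Zbtb16, the factor of NKT cells, had 2 UMIs against 0.526 expected (a ratio of 3.81, 0.461 to 13.7) and Klrb1c 4 against 20.3 expected, while Arg1 had 13 of its 18 UMIs in cytokine cells. A T cell marker was found in 568 of the 575 cytokine cells, and the 9 T cell markers summed to 42.5 UMIs per 10,000 in them against 49.3 in other cells. Genes of melanoma cells had 0 UMIs in cytokine cells. The myeloid list summed to 0.997 UMIs per 10,000 in cytokine cells against 0.491 in others, with Cd74 at 157 of 180 UMIs, and the B cell list to 0.338 against 0.886. Their part in the results was not tested.

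The genes whose pattern was most like each of the 4 were ranked in 2 ways. Over the 24 pools of gate and library with at least 20 cells, which share libraries and differ in depth, Il4 was nearest to Csf1, the gene of a macrophage growth factor (Pearson r = 0.913 on log2 levels), Lgals7 (0.913) and Prxl2a (0.885), then to Ifitm3 and Ccl1. Il5 was nearest to Calca (0.868), Hdc (0.864) and Prxl2a (0.821), then to Ptpn13 and Hilpda, and Il13 to Lgals7 (0.890), Hdc (0.875), Calca (0.867), Ccl1 and Prxl2a. Gata3 was nearest to Podnl1 (0.906), Sdf4, Ero1l, Itgb1 and Hif1a. Among the genes themselves, r was 0.936 for Il4 with Il13, 0.817 for Il4 with Il5, 0.836 for Il5 with Il13, and 0.726, 0.705 and 0.675 for Gata3 with Il4, Il5 and Il13. Levels had 0.1 added before the log2. Pools with 0 UMIs of a cytokine gene, most of them from libraries 1 and 2, therefore all took the same lowest value. The part of these pools in r and in the nearest genes was not tested.

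In single cells, the ratio of found to expected cells gave other names. Il4 was led by Pdlim4 (48 cells against 9.58), Cysltr1, a leukotriene receptor (79 against 16.9), Marcks, Areg and Bmpr2. Il5 was led by Calca (24 against 2.53), Hdc (27 against 3.05), Igfbp7, Irs2 and Cxcl2. Il13 was led by Igfbp7 (58 against 8.18), Cxcl2, Hdc, Ramp1, a part of the CGRP receptor (64 against 11.3), and Ltb4r1. For Gata3 the first was Foxp3 (33 against 13.3), followed by Pdlim4, Cysltr1, Areg and Calca. These are descriptions of 1 pool and carry no test.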

How the data were processed

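Single-cell RNA sequencing with 5′ droplet libraries was performed by the study on T cells of 6 samples. The authors deposited raw UMI counts (whole numbers, not normalized) for each gene in each cell. The submitters' processing notes name Cell Ranger, Seurat and mm9, and the study's methods name mm10. The counts carry no coordinates, and the effect of the build on counting was not tested. 0 columns of other series were found.

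Levels, shares and ratios were computed with Python 3.11.15, NumPy 2.4.6, SciPy 1.17.1 and pandas 2.3.3, and the ratio and co-detection code was tested on simulated data. Ratios divide the UMIs found by those expected from the comparison cells of the same library, or of the same library and depth group (5 groups per library). Genes needed 20 UMIs, and log2 ratios had 0.5 UMIs added to found and expected. Intervals are 95%, and the limit of a count of 0 is 3 counts. No p-value was computed. The 6 library numbers are matched to no sample or group, so libraries were not taken as replicates, and values within each are given instead. At 610 to 2499.5 median UMIs per cell, absence of a UMI does not show absence of a transcript.

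Named genes were the 4 genes, the list genes with the largest and smallest ratios, and the 5 nearest by each measure of likeness (among genes with 200 UMIs, or in 100 cells and 10 shared cells). Other genes named from the lists, such as Csf2, Ccr4, Calca and Cd40lg, were chosen after their values were seen. The 4 genes and all lists were chosen with earlier results of these data known. Alternatives covered leaving out each library, thinning, thresholds, gates, matching and added counts. List counts with the minimum met in the comparison cells alone, and gate ratios without each library, were added after the data were seen. A comparison of PBS with DTx was left out.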

Additional observations from a re-analysis of the deposited data

Results flagged for a closer look

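Markers of cells other than T cells had more UMIs in the sorted pool than the limit of 3 counts. Kit had 27 UMIs in all cells, in 27 cells, with 0 in cytokine cells. Cd200r3 had 15 UMIs in 14 cells, with 2 UMIs in cytokine cells. The melanoma list had 67 UMIs in 18 cells, with 0 in cytokine cells.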

How the results depend on the processing

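Of 236 alternative values of 23 results, 165 stayed within the interval or within 1.5 times of the reported count and 71 moved. Shares, levels and gene counts are never negative, so only the log2 ratios could change direction, and none did. Outside these 23 results, the ungated to CD4+ Tconv ratio fell below 1 without library 4 for Il5 (0.695) and Il13 (0.989). On the log2 scale, the CD4+ Tconv to CD8+ ratio with 1 library left out ran from 2.33 to 3.91 for Il4, 3.48 to 4.96 for Il5 and 3.62 to 4.48 for Il13. Without matching it was 3.14 for Il4 and 4.54 for Il13. With every Cd4 cell against every Cd8 cell it was 2.30, 3.04, 3.02 and 1.50 for Il4, Il5, Il13 and Gata3. With at least 2 Cd8 UMIs, chosen after seeing the data, it was 3.73 for Il4 and 4.65 for Il13. Genes at least 2-fold higher numbered 262 with 50 UMIs required and 1308 with no minimum, and genes lower 564 with 10 UMIs, 216 with 50 and 1308 with no minimum. For co-detection, matching by library alone gave 2.47 (Il4 and Il5), 2.78 (Il4 and Il13), 1.32 (Il4 and Gata3), 3.92 (Il5 and Il13), 1.68 (Il5 and Gata3) and 1.42 (Il13 and Gata3), and CD4+ Tconv cells alone gave, in that order, 0.63, 1.04, 0.55, 1.87, 0.30 and 0.26. Requiring 2 UMIs of each gene gave 1.29 (Il4 and Il5), 1.65 (Il4 and Gata3), 3.58 (Il5 and Il13), 1.84 (Il5 and Gata3) and 1.62 (Il13 and Gata3). With 1 library left out, Il4 and Il13 ran from 2.20 to 2.62, and Gata3 in cytokine cells from 1.73 to 2.03. In CD4+ Tconv cells alone the Gata3 value was 1.18, with 349 genes higher and 491 lower. The causes were not tested. Leaving out shared barcodes, the 1% deepest cells or the Cd4 and Cd8 cells moved no value computed. These settings were also chosen after seeing the data, except the 1% deepest cells for levels, which was planned. No paired test over libraries was run. Library numbers are matched to no sample, so libraries were not taken as replicates, and gates were compared within them. Depth limits what a cell without a UMI shows.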

Other observations

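Genes of follicular helper and Th17 cells were not alike in cytokine cells. Of 11 tested, 4 were at least 2-fold higher and 1 lower, with a median log2 ratio of 0.14. Among all tested genes 5.19% were higher and 6.74% lower. Tox2, a factor of follicular helper T cells, had 76 UMIs against 9.85 expected, a ratio of 7.72 (6.08 to 9.66), and Il21, which encodes IL-21, a ratio of 9.77 (6.77 to 13.7). Il17a had 14 UMIs against 3.61 and Il22 8 against 3.37, while Il23r, the gene called lower, had 0 against 0.835. Bcl6 was at 1.10 times (0.618 to 1.82) and Cxcr5 had 1 UMI. Sh2d1a, a signalling adaptor, was at 0.565 times (0.484 to 0.656).

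Of 15 activation genes, 5 were at least 2-fold higher in cytokine cells and none lower, with a median log2 ratio of 0.50. Among all tested genes 5.19% were higher and 6.74% lower. The 5 were Egr3 at 3.65 times (2.48 to 5.19), Cd40lg at 2.67 times (2.49 to 2.85), Egr2 at 2.28 times (1.33 to 3.65), Nr4a3 at 2.07 times and Fos at 2.03 times. Cd69, an early activation marker, was at 0.659 times and Myc at 0.653 times.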
